A study of Mus musculus with 5 samples.

Results

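The immediate early response genes described here are 36 named mouse genes of the iridocorneal angle, the ring of tissue between iris and cornea through which aqueous humor drains. They were chosen by their RNA level in the library of DBA/2J pool 1, which was high, so that level is given as a description without a test. All 36 were in the deposited table of 56941 gene identifiers, and 35 were among the 19713 genes that reached 10 counts in any pool. Npas4, a neuronal activity-dependent transcription factor, had 7, 2, 0, 3 and 6 counts in the 5 pools and was not tested.

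RNA was sequenced from 3 pools of DBA/2J mice and 2 pools of Gpnmb+ mice, all 12 months old. DBA/2J mice carry the Gpnmb R150X nonsense allele together with the Tyrp1 b allele and develop pigmentary glaucoma. The Gpnmb+ strain, DBA/2J-Gpnmb+/SjJ, has a functional Gpnmb allele and keeps Tyrp1 b, so both groups share the Tyrp1 mutation. The study describes 3 mice per pool and both sexes, while the library names list 3 animals in each DBA/2J pool and only a pair in each Gpnmb+ pool. Gpnmb stood at 43.6 to 52.0 CPM (counts per 1000000 of a library total scaled by edgeR's TMM method) in the DBA/2J pools and at 2260 to 2555 in the Gpnmb+ pools. Totals ran from 43900661 to 49837758 counts per pool, and DBA/2J pool 1 held 45596089. Its mitochondrial share of 4.15% and the 22.2% of counts on its 100 largest genes lay inside the ranges of the other pools, 2.67% to 4.71% and 21.7% to 22.9%. Xist, expressed from the inactive X chromosome of females, had 13.4, 0 and 54.2 CPM in the DBA/2J pools, in order, and 155 and 187 in the Gpnmb+ pools, and Y-linked Ddx3y stood at 81.2, 97.1, 35.1, 0 and 0.0818. Ddx3y was thus almost absent from both Gpnmb+ pools, although the study lists more males than females among the Gpnmb+ mice. Genotype and sex therefore cannot be told apart in the comparison of the groups. In pooled tissue, fewer cells of a type and less RNA per cell cannot be told apart either.

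Immediate early genes are transcribed within minutes of a stimulus, from factors already present in the cell and without new protein synthesis. Growth factors, stretch, wounding, calcium entry and cytokines reach them through MAP kinases acting on serum response factor and its ternary complex partners, and through CREB. Their products are transcription factors of the AP-1, EGR and NR4A families, phosphatases and RNA-binding proteins that close the response, and secreted or structural effectors, and most of the transcripts decay quickly. In cells of the outflow pathway such genes are known to respond to mechanical stretch.

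The members took 0.452% of all counts in DBA/2J pool 1, against 0.164% and 0.174% in DBA/2J pools 2 and 3 and 0.164% and 0.192% in Gpnmb+ pools 1 and 2. Their summed level in pool 1 was 2.45 times that of the next highest pool. Of the 35 tested members, 32 were highest in DBA/2J pool 1, where 21.1% of all tested genes were, and 19 were at least 2-fold above every other pool, where 0.852% of genes were. The excess was at least 4-fold over every other pool for 10 members and for 0.259% of genes. The other pools were highest for few members, DBA/2J pool 2 for 0 (14.4% of genes), DBA/2J pool 3 for 1, Gadd45g (18.2%), Gpnmb+ pool 1 for 0 (19.5%) and Gpnmb+ pool 2 for 2, Klf4 and Gadd45b (26.9%). None of them held a member at least 2-fold above every other pool, where 0.193%, 0.548%, 0.644% and 1.18% of genes were in the same order. The members closest above the 2-fold line were Dusp1 at 2.32-fold and Cebpb at 2.41-fold, and those closest below it were Jun at 1.83-fold and Ppp1r15a at 1.66-fold. The median log2 ratio of DBA/2J pool 1 to the mean of DBA/2J pools 2 and 3 was 1.44 over the 35 members and -0.016 over all tested genes. Among the 4 other pools, the highest exceeded the lowest by a median of 1.59-fold per member and by 3.13-fold at most. For 23 members, the fold of pool 1 over the highest other pool was larger than that spread. The exceptions to the pattern were Klf4, Gadd45b and Gadd45g, which were not highest in pool 1.

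**Figure D1:**
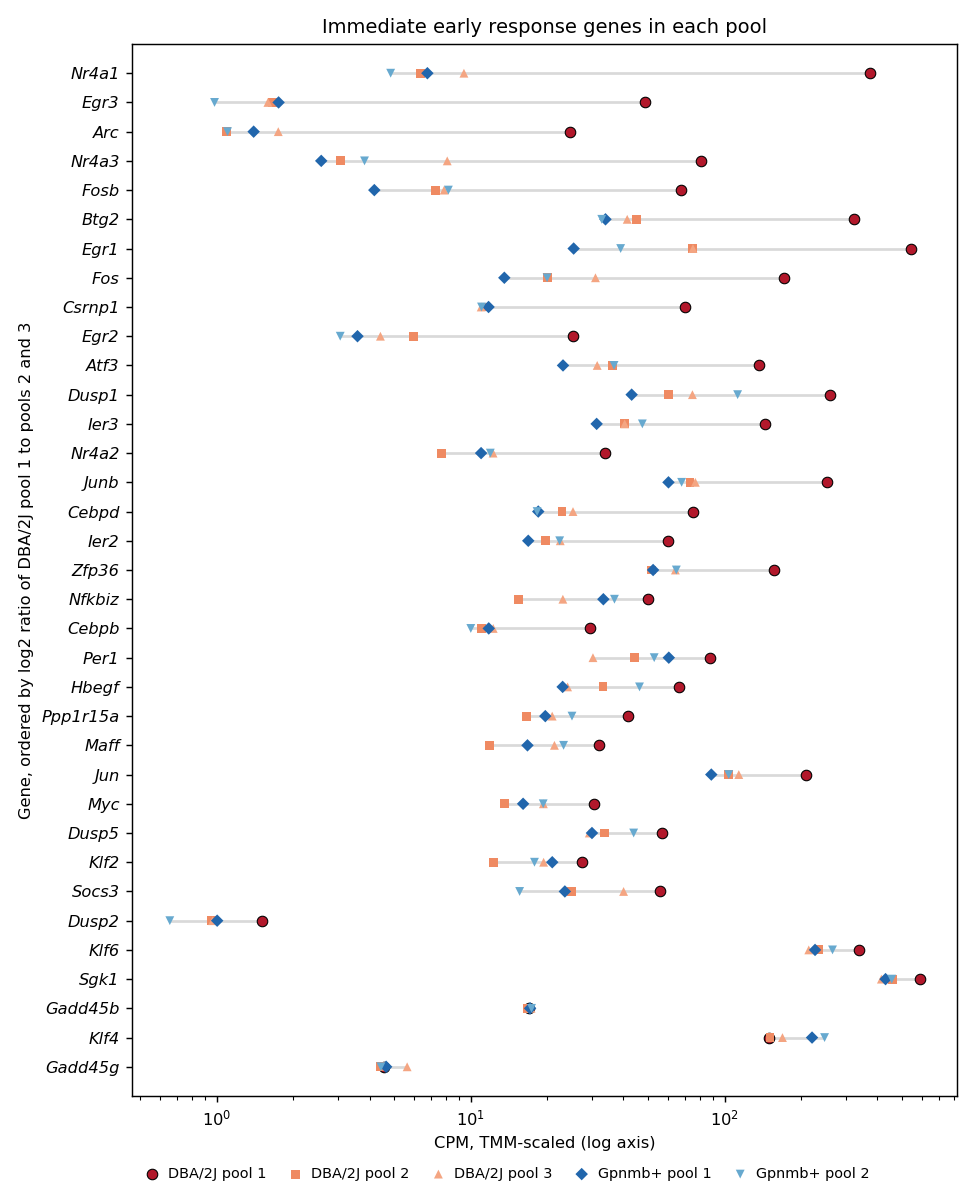
TMM-scaled CPM of the 35 tested immediate early response genes in each of the 5 pools on a log axis, with genes ordered by the log2 ratio of DBA/2J pool 1 to the other DBA/2J pools and 1 point per pool. The red circle of DBA/2J pool 1 lies to the right of the other pools for 32 genes, by 39.8-fold for Nr4a1 at the top, and not for Gadd45b, Klf4 and Gadd45g.

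The NR4A family, orphan nuclear receptors that bind DNA without a known hormone ligand, held the largest ratio of the list. Nr4a1 (ENSMUSG00000023034, chr15:101151980-101172681 in GRCm39, plus strand) stood at 375 CPM in DBA/2J pool 1, at 6.36 and 9.42 in DBA/2J pools 2 and 3, and at 6.76 and 4.85 in Gpnmb+ pools 1 and 2. That was 39.8-fold above the next highest pool, the second largest excess among all tested genes. Nr4a3 stood at 80.9 CPM in pool 1, at 3.08 and 8.09 in its DBA/2J counterparts, with 2.58 and 3.82 in the Gpnmb+ pools. The 4 other pools spread most for this member, and pool 1 was still 9.99-fold above the highest of them. Nr4a2, best known from dopaminergic neurons, had the smallest ratio of the family, with 33.7 CPM in pool 1, 7.69 and 12.3 in DBA/2J pools 2 and 3, and 11.0 and 12.0 in the Gpnmb+ pools.

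The EGR zinc finger factors bind GC-rich sites in the promoters of many response genes. Egr1 was the member with the highest CPM after Sgk1 in pool 1, at 545 CPM, against 75.0 and 75.1 in DBA/2J pools 2 and 3 and 25.5 and 38.99 in the Gpnmb+ pools. The pools fell into 3 levels for Egr1, with DBA/2J pools 2 and 3 both above the Gpnmb+ pools and pool 1 7.25-fold above both. Egr3 (ENSMUSG00000033730, chr14:70314350-70320063, plus strand) stood at 48.7 CPM in pool 1, at 1.65 and 1.59 in DBA/2J pools 2 and 3 and at 1.75 and 0.981 in the Gpnmb+ pools, a 27.8-fold excess. Egr2, a factor of Schwann cell myelination, stood at 25.3 CPM, against 5.94 and 4.42 in its DBA/2J counterparts, with 3.59 and 3.07 in the Gpnmb+ pools. As for Egr1, both other DBA/2J pools were above both Gpnmb+ pools.

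AP-1 factors are dimers, typically of a JUN protein with a FOS or ATF protein. Fos (ENSMUSG00000021250, chr12:85520658-85524047, plus strand) stood at 171 CPM in pool 1, at 20.1 and 31.0 in DBA/2J pools 2 and 3, and at 13.6 and 20.01 in the Gpnmb+ pools. Fosb stood at 67.4 CPM in pool 1, at 7.29 and 7.87 in its DBA/2J counterparts, with 4.18 and 8.18 in the Gpnmb+ pools. The FOS members thus differed 5.52-fold and 8.24-fold between pool 1 and the next pool, more than the JUN members. Junb stood at 253 CPM, against 73.2 and 76.8 in DBA/2J pools 2 and 3 and 60.2 and 67.8 in the Gpnmb+ pools, and Jun at 208 CPM, against 103.5, 113.8, 88.7 and 103.9. Atf3, a stress-induced repressor, was 3.74-fold above the next pool, at 137 CPM against 36.2, 31.5, 23.1 and 36.7. Maff, a small MAF protein without an activation domain, stood at 32.0 CPM against 11.9, 21.4, 16.8 and 23.2, an excess of 1.38-fold that was smaller than its spread among the 4 other pools.

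The upstream DNA of the members was compared with the stimulus-response motifs. The RefSeq promoter table (GRCm38.p6) held 28 of the 36 members, in 43 windows, and not Egr1, Egr3, Ier2, Arc, Nfkbiz, Hbegf, Cebpd and Myc. In the 250 bases before the annotated start, on both strands, the short core of the CREB site, TGACG, was present in 20 of the 28 members (71.4%) and in 19.8% of the 27025 genes of the table. The full CREB site TGACGTCA, which contains that core on both strands, was present in 4 members (14.3% against 1.77%), namely Dusp1, Btg2, Maff and Ppp1r15a. The CArG box, bound by serum response factor, was present in 3 members (10.7% against 1.62%), namely Egr2, Dusp5 and Zfp36. The EGR site, written GCGTGGGCG or GCGGGGGCG, was present in 8 members (28.6% against 3.47%) and the NF-kB site in 6 (21.4% against 8.23%). The AP-1 site, TGAGTCA or TGACTCA, was present in 1 member, Csrnp1 (3.57% against 5.16%). A gene was counted if any of its windows held the motif, and the 27025 genes of the table had 32851 windows. The members' windows were richer in G and C than the table, with a median of 64.0% against 52.4% and 18 CG dinucleotides per window against 6. The parts of base composition and of the number of windows per gene in these shares were not tested. A match is a run of letters and was not measured as a bound site. Sites farther upstream, or with other letters, were not searched, so a member without a match here may still have one.

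The windows of 5 members at least 4-fold above every other pool are shown with that of Gadd45b. Gadd45b did not differ and held none of these motifs. The stretch of Egr2 with 1 of its CArG boxes and a TGACG core is shown as well. The motifs did not follow the excess throughout. Jun, 1.83-fold above the next pool, held none, and Klf4, lowest in pool 1, held a TGACG core and an EGR site. The TGACG core was in 12 of the 14 searched members past the 2-fold line and in 7 of the 13 under it. For the EGR site these counts were 3 and 5. Sequences run 5′ to 3′ along the gene's strand with motifs in capitals, and each long window ends at the base before the start site.
Nr4a1, chr15:101266596-101266845, plus strand: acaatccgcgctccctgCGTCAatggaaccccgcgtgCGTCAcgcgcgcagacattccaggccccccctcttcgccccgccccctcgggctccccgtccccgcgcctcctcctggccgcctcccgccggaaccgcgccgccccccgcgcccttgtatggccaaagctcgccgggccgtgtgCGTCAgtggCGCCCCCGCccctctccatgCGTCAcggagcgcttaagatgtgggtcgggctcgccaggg
Nr4a3, chr4:48045055-48045304, plus strand: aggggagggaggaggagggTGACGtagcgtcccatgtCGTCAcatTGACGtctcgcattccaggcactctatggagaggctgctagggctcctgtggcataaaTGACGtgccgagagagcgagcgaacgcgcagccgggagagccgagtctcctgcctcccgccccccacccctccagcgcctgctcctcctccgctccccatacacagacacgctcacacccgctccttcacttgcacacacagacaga
Fos, chr12:85473640-85473889, plus strand: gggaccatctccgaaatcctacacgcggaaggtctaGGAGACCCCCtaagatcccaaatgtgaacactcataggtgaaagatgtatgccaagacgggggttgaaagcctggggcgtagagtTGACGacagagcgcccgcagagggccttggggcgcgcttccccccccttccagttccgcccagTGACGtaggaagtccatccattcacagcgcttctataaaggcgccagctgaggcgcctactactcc
Fosb, chr7:19310046-19310295, minus strand: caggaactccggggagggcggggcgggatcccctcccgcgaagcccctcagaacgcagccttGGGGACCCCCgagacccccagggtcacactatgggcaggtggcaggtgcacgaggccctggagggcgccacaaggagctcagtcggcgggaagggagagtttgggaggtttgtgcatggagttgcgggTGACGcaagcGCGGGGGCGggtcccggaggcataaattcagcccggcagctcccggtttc
Btg2, chr1:134079156-134079405, minus strand: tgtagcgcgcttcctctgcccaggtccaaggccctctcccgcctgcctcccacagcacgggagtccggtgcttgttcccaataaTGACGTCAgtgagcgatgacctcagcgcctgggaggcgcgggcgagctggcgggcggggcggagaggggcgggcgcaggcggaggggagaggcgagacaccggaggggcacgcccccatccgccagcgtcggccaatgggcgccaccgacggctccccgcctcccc
Gadd45b, chr10:80929841-80930090, plus strand: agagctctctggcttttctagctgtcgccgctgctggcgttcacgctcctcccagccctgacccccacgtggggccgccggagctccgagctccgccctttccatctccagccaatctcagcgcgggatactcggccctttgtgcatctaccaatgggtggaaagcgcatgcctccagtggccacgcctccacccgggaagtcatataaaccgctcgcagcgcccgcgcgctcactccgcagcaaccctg
Egr2, chr10:67537797-67537818, plus strand: CCATATATGGgcagcgaCGTCA
Nr4a1 carried the TGACG core, on the opposite strand as CGTCA, beginning 233, 213, 69 and 40 bases before its start, with an EGR site from 60 bases before it. Nr4a3 carried the core 4 times, from 231, 213, 205 and 147 bases before the start. Fos had cores from 129 and 66 bases before its start and an NF-kB site from 214. Fosb had an NF-kB site from 188, a core from 60 and an EGR site from 50 bases before its start. The full CREB site of Btg2 began 166 bases before its start.

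Btg2, an antiproliferative regulator of mRNA deadenylation, stood at 323 CPM in pool 1, at 44.96 and 41.4 in DBA/2J pools 2 and 3, and at 33.98 and 32.85 in the Gpnmb+ pools. Its 7.18-fold excess was the largest of the growth-arrest and stress genes, and the genotypes did not overlap. Ier3, a regulator of cell survival, stood at 145 CPM against 40.4, 40.4, 31.4 and 47.5. Ppp1r15a, the GADD34 subunit that directs dephosphorylation of eIF2 alpha, stood at 41.6 CPM against 16.6, 21.0, 19.7 and 25.1. Gadd45b and Gadd45g, proteins of stress signalling, did not share the pattern. Gadd45b stood at 17.0, 16.7, 17.3, 17.2 and 17.4 CPM in the 5 pools, and Gadd45g at 4.57, 4.43, 5.63, 4.65 and 4.44. Gadd45b had the smallest spread of all members among the 4 other pools, 1.04-fold.

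Among other nuclear regulators, Csrnp1 stood at 69.8 CPM in pool 1, at 11.4 and 11.0 in DBA/2J pools 2 and 3 and at 11.8 and 11.0 in the Gpnmb+ pools. It combined a 5.93-fold excess in pool 1 with a spread of only 1.07-fold among the other pools. Ier2 stood at 59.9 CPM against 19.8, 22.6, 16.9 and 22.4. Myc, the growth-promoting oncoprotein, stood at 30.5 CPM against 13.6, 19.4, 16.1 and 19.3. Per1, a light- and glucocorticoid-inducible repressor of the circadian clock, stood at 87.3 CPM in pool 1, at 44.3 and 30.3 in its DBA/2J counterparts, with 60.3 and 52.9 in the Gpnmb+ pools. For Per1 the Gpnmb+ pools therefore lay between pool 1 and the other DBA/2J pools. Cebpd, a C/EBP factor of the acute phase response, stood at 75.1 CPM against 22.9, 25.3, 18.5 and 18.3, and Cebpb at 29.6 CPM against 11.0, 12.3, 11.8 and 10.02.

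The KLF factors behaved least like the rest. Klf4, a regulator of epithelial differentiation, stood at 150 CPM in pool 1, at 151 and 169 in DBA/2J pools 2 and 3, and at 221 and 248 in the Gpnmb+ pools. It was the only member lowest in pool 1, and all 3 DBA/2J pools lay below both Gpnmb+ pools. Klf2, a shear-responsive endothelial factor, stood at 27.5 CPM against 12.3, 19.4, 21.0 and 17.8, and Klf6 at 337 CPM against 235, 215, 227 and 266. Both were highest in pool 1 by about 1.3-fold, less than the spread among the other pools for Klf2 and slightly more than it for Klf6.

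Inhibitors that close the response also varied. Dusp1, a nuclear phosphatase of MAP kinases, stood at 261 CPM in pool 1, at 59.9 and 74.7 in DBA/2J pools 2 and 3, and at 43.1 and 113 in the Gpnmb+ pools, which were thus 2.61-fold apart. Zfp36, which destabilises AU-rich cytokine transcripts, stood at 156 CPM against 51.4, 64.0, 52.3 and 64.6. Dusp5, an ERK phosphatase, stood at 56.7 CPM against 33.7, 29.3, 30.1 and 43.9. For Dusp1 at 2.32-fold, and also for Dusp2, Dusp5, Socs3 and Nfkbiz, the excess of pool 1 over the next pool was smaller than the spread among the 4 other pools. Socs3, which inhibits JAK-STAT signalling, stood at 55.8 CPM in pool 1, at 25.0 and 40.0 in DBA/2J pools 2 and 3, and at 23.5 and 15.6 in the Gpnmb+ pools. Nfkbiz, an inducible nuclear IkB protein, stood at 49.9 CPM in pool 1, at 15.4 and 23.1 in its DBA/2J counterparts, with 33.3 and 36.9 in the Gpnmb+ pools. Dusp2 was low in every pool, at 1.51, 0.955, 0.964, 1.00 and 0.654 CPM (67, 41, 43, 51 and 32 counts).

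The effectors differed widely in size of excess. Arc (ENSMUSG00000022602, chr15:74540932-74544419, minus strand), a capsid-forming regulator of synapses, stood at 24.6 CPM in pool 1, at 1.09 and 1.75 in DBA/2J pools 2 and 3, and at 1.40 and 1.10 in the Gpnmb+ pools. Hbegf, an EGF receptor ligand, stood at 65.9 CPM against 33.2, 24.1, 23.0 and 46.3. Sgk1, a kinase that regulates ion channels, stood at 588 CPM against 460, 415, 430 and 455. Arc was 14.1-fold above the next pool, whereas Sgk1, the member with the highest CPM, was only 1.28-fold above it.

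Per length of exon, the members with the largest ratios were among the lowest in the other pools. The level in those pools is also the divisor of the ratio, so the 2 measures are not independent. On the RPKM scale (CPM per kilobase of exons), the means of the 4 other pools were 0.318 for Egr3, 0.383 for Arc, 0.421 for Dusp2 and 0.628 for Nr4a1, and those in pool 1 were 10.3, 7.04, 0.709 and 34.4. Dusp2, in the same low range, differed 1.50-fold from the next pool in CPM. The length used joins all annotated exons of a gene, 10903 bp for Nr4a1, so a place on the RPKM scale depends on it. At the other end, Sgk1 stood at 73.2, Klf4 at 62.6, Klf6 at 52.8, Ier3 at 35.0 and Jun at 32.1 RPKM in the other pools. In pool 1 the order began with Ier3 at 127, Egr1 at 121, Junb at 106 and Sgk1 at 97.8 RPKM. Neighbours in either order that are closer than the 1.59-fold median spread of a member among the other pools are not separated by these data.

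**Figure D2:**
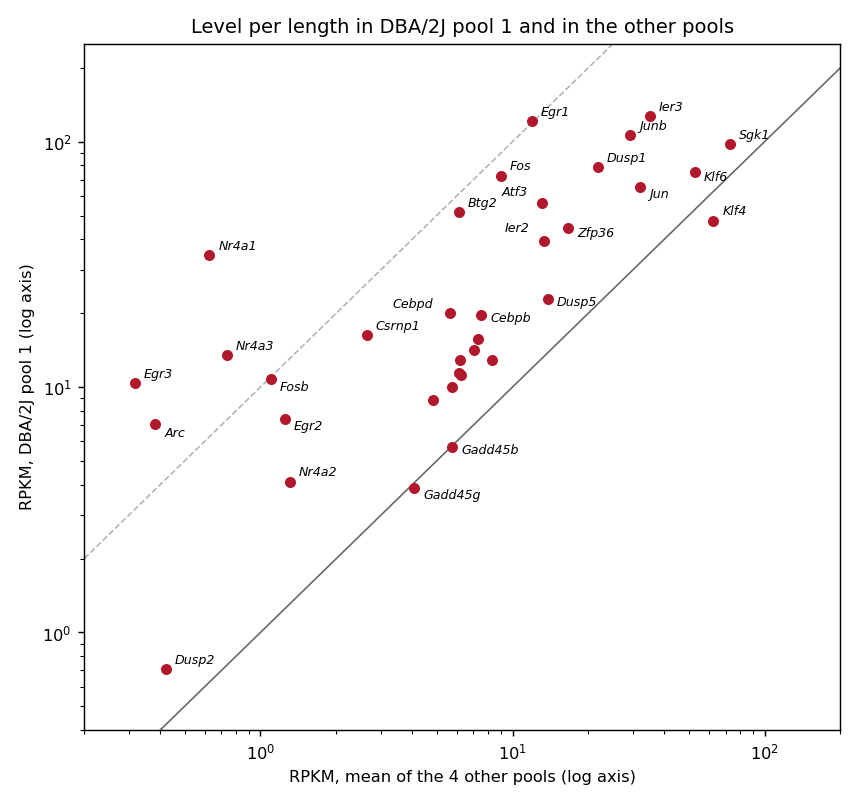
Level per length (RPKM) of the 35 tested members in DBA/2J pool 1, vertical axis, against the mean of the 4 other pools, horizontal axis, both on log axes, with 1 point per gene and no names on the crowded points of Hbegf, Per1, Myc, Nfkbiz, Maff, Ppp1r15a, Socs3 and Klf2. The solid line marks equal levels and the dashed line a level 10 times higher in pool 1, and Nr4a1, Egr3, Arc, Nr4a3 and Egr1 lie above the dashed line, while Klf4 and, by a small margin, Gadd45b and Gadd45g lie below the solid line.

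The members were mostly short genes, with spans from 1248 to 117720 bp. Their median span was 5552 bp, against 26034 bp over 15917 tested protein-coding genes, and 63.9% of members but 21.6% of those genes spanned under 10000 bp. The span did not order the members among themselves, with medians of 5714 bp for the 19 at least 2-fold above every other pool and 5193 bp for the 16 below that line. Counting is not stated to use strand, and exons of 4 members overlap those of well-expressed genes on the opposite strand, so that reads could be shared in part. These are Junb with Prdx2 and a further gene model (318 bp, 46706 counts on the partners over all pools), Dusp1 with Ergic1 (38 bp, 36691), Cebpb with Peds1 (312 bp, 8216) and Cebpd with Spidr (563 bp, 4182).

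The genotype comparison asked whether the loss of functional Gpnmb goes with a different level of these genes. With all 5 pools, edgeR's quasi-likelihood test called 0 of the 35 members at a Benjamini-Hochberg adjusted p of at most 0.05 and a fold of at least 1.5, where 0.796% of tested genes (157 of 19713) were called. An unadjusted p of at most 0.05 was reached by 3 members, Klf4, Socs3 and Egr1, against 15.9% of genes, and with the fold as well by 2 members against 8.67%. DESeq2 called 1 member, Socs3 (4.70% of genes), and limma-voom called 0. Since pool 1 is in this fit, the values below describe the choice of genes as well as the genotypes. The log2 fold change of DBA/2J over Gpnmb+ was above 0 for 31 members, against 47.4% of genes, and the members' median was 0.69. Nr4a1 had the largest, 4.49 (SE 2.01, adjusted p = 0.352, edgeR), with DBA/2J at 130 ± 212 CPM (SD, n = 3) and Gpnmb+ at 5.80 ± 1.35 CPM (SD, n = 2). Egr3 followed with 3.66 (SE 1.75) and Nr4a3 with 3.26 (SE 1.44). The members' median SE was 0.48, against 0.18 over all genes.

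Without DBA/2J pool 1, the library for which the genes were listed, the comparison rests on 2 pools against 2. The choice named no difference between these groups. A level high in pool 1 is read against these same pools, however, so their values are not independent of the choice. Again 0 of the 35 members were called by edgeR, where 0.0307% of genes (6 of 19551) were. The log2 fold change was above 0 for 19 members, against 46.3% of genes, and its median was 0.097 with a median SE of 0.21. Nr4a1 went from 4.49 to 0.44 (SE 0.28), Egr3 from 3.66 to 0.25 (SE 0.37) and Arc from 2.86 to 0.18 (SE 0.36). An unadjusted p of at most 0.05 was reached by 7 members, against 12.3% of genes, and these were Egr1, Egr2, Btg2 and Cebpd with higher and Klf4, Nfkbiz and Per1 with lower values in DBA/2J. With the fold as well, 4 members passed, against 7.04% of genes. DESeq2 called Egr1 and Nfkbiz, where it called 3.57% of genes, and limma-voom called 0 members.

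Egr1 was the member with the lowest adjusted p in this comparison, at 75.0 ± 0.094 CPM (SD, n = 2) for DBA/2J pools 2 and 3 against 32.2 ± 9.56 CPM (SD, n = 2) for Gpnmb+. The estimate on the log2 scale was 1.22 (SE 0.21, edgeR adjusted p = 0.161, DESeq2 adjusted p = 1.9e-05), so the call depends on the tool. Klf4 gave -0.55 (SE 0.11, edgeR adjusted p = 0.191), close to its -0.58 (SE 0.099, adjusted p = 0.0689) with all 5 pools, and the 3 DBA/2J pools lay on the same side in both. Nfkbiz gave -0.86 (SE 0.21, edgeR adjusted p = 0.237, DESeq2 adjusted p = 0.0147), with both DBA/2J pools below both Gpnmb+ pools, whereas pool 1 was the highest of all. Per1 had the same arrangement and gave -0.60 (SE 0.20, edgeR adjusted p = 0.349). The 2 genotypes did not overlap, with DBA/2J higher, for Fos, Junb, Egr1, Egr2, Btg2, Socs3 and Cebpd, which is 7 members against 22.0% of genes, and with DBA/2J lower for Klf4, Nfkbiz and Per1, 3 members against 23.1% of genes (10 members and 45.1% in either direction). With pool 1 included, 7 members were higher in every DBA/2J pool (17.3% of genes) and 1, Klf4, was lower in every one (17.2%).

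**Figure D3:**
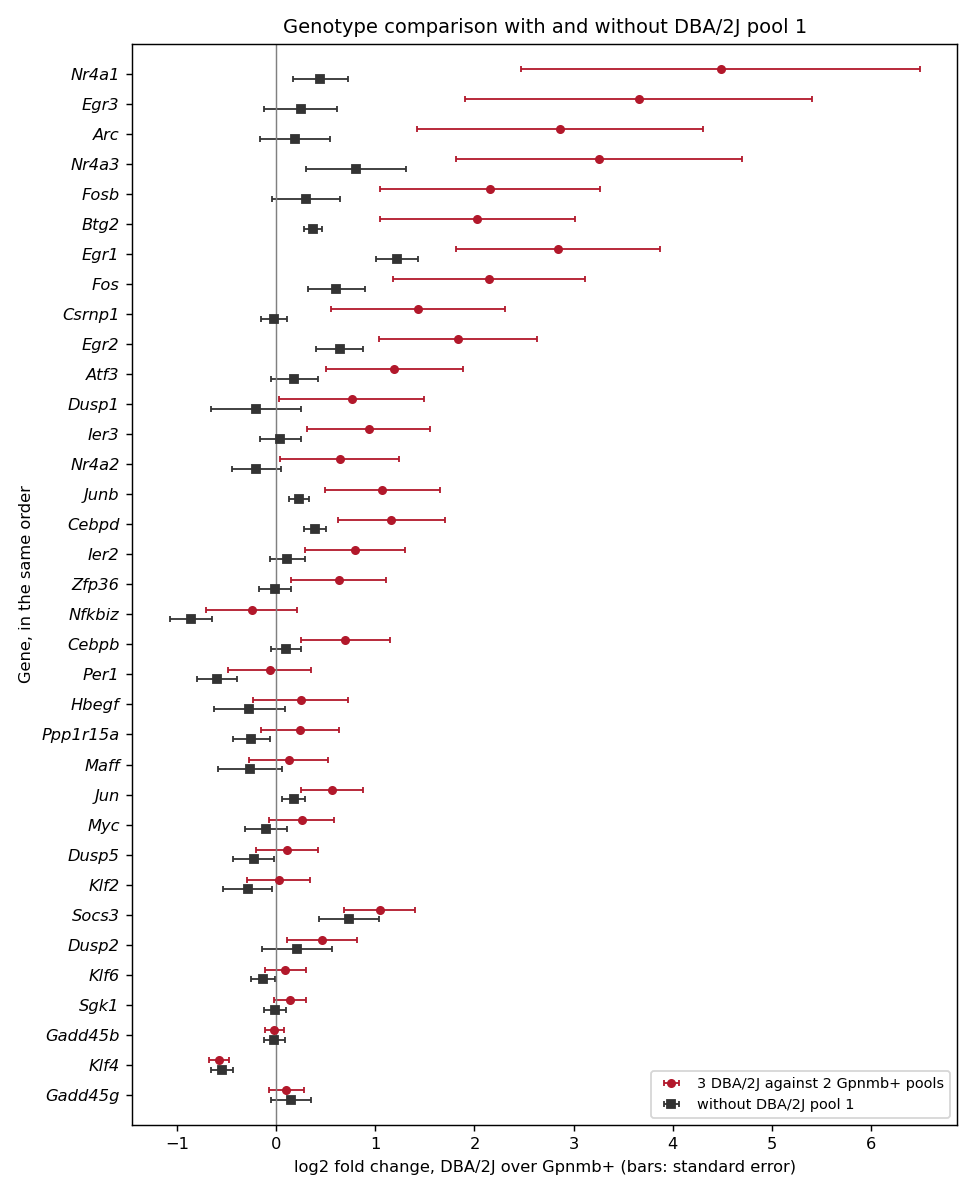
log2 fold change of DBA/2J over Gpnmb+ with its standard error for each tested member, from edgeR's fit to all 5 pools (red circles) and to the 4 pools without DBA/2J pool 1 (black squares). Without pool 1 the large positive estimates are smaller, from 4.49 to 0.44 for Nr4a1 and from 2.85 to 1.22 for Egr1, Klf4 is at -0.58 and -0.55, and some others lie farther below 0, such as Nfkbiz at -0.25 and -0.86.

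Genes of the surrounding pathway were read in the same way. Of 50 other early response genes, 39 were highest in pool 1 (21.1% of all genes were) and 14 were at least 2-fold above every other pool (0.852%), and their median log2 ratio to the other DBA/2J pools was 0.57. Ccn1 and Ccn2 encode secreted matricellular proteins. Ccn1 stood at 829 CPM in pool 1 against 118.5, 109, 109 and 98.6, Ccn2 at 1160 CPM against 568, 701, 571 and 743, and Mcl1, an anti-apoptotic protein, at 411 CPM against 354, 314, 343 and 373. The 24 upstream transcription factors and kinases, which carry the signal before any new transcription, had a median log2 ratio of -0.010 and a range from -0.18 to 0.31. Of these, 10 were highest in pool 1 and 0 reached 2-fold. Among those with the highest means, Stat3 stood at 237, 204, 212, 195 and 181 CPM and Rps6ka3 at 179, 191, 171, 192 and 207 CPM in the order of the pools. Of 13 MAP kinase feedback inhibitors outside the members, 7 were highest in pool 1 with a median of 0.22. Among them, Spred1 stood at 144 CPM in pool 1 against 126 to 133 elsewhere, Dusp6 at 103 against 43.4 to 62.9, and Dusp16 at 69.1 against 69.8 to 115. None of these 3 lists had a member called between the genotypes by edgeR, with or without pool 1. At an unadjusted p of at most 0.05, where 15.9% of all genes stood with all pools and 12.3% without pool 1, the other early response genes had 7 of 50 and 5 of 49, the upstream list 1 and 1 of 24, and the feedback list 2 and 1 of 13.

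Clock genes, which cycle over the day, and genes induced by glucocorticoids or heat shock were read as further lists. The study states that all eyes were taken at a fixed hour to limit circadian differences. Of 17 circadian clock genes other than Per1, 0 were highest in pool 1 and 9 were lowest (22.7% of all genes were), with a median log2 ratio of -0.22. Nr1d2 stood at 195 CPM in pool 1 against 269, 216, 279 and 274, Hlf at 205 against 291, 202, 270 and 260, and Tef at 164 against 259, 167, 289 and 292. Per1 itself was highest in pool 1. Between the genotypes edgeR called 0 clock genes with all pools or without pool 1, and 7 and 3 of the 17 had an unadjusted p of at most 0.05, against 15.9% and 12.3% of genes. The log2 fold change was above 0 for 3 of the 17 with all pools and for 6 without pool 1, and Per3 gave -0.85 (SE 0.13, adjusted p = 0.0571, edgeR) and -0.77 (SE 0.14, adjusted p = 0.163) in turn. Of 17 glucocorticoid response genes, 6 were highest in pool 1 with a median of 0.15, and 2, Lcn2 and Errfi1, were at least 2-fold above every other pool (0.852% of genes were). Errfi1 is also among the other early response genes. Lcn2, a siderophore-binding acute phase protein, stood at 1221 CPM in pool 1 against 263, 137, 154 and 27.4, Klf9 at 110 against 92.6, 106.5, 107 and 121, and Mt1, a metallothionein, at 97.4 against 62.1, 71.2, 92.6 and 90.7. With all 5 pools edgeR called 1 gene of this list, Tsc22d3, lower in DBA/2J (log2 -0.67, SE 0.083, adjusted p = 0.0382), where 0.796% of genes were called. Without pool 1 it called 0 of the list, and Tsc22d3 gave -0.62 (SE 0.081, adjusted p = 0.117, edgeR). An unadjusted p of at most 0.05 was reached by 1 of the 17 with all pools and 5 without pool 1, against 15.9% and 12.3% of genes. Of 16 heat shock genes, 6 were highest in pool 1, 0 reached 2-fold and the median was 0.22. Hspa5 stood at 951 CPM in pool 1 against 694, 875, 624 and 652, Hspa8 at 795 against 618, 686, 631 and 565, and Hsp90aa1 at 569 against 403 to 486.

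Markers of cell types that the dissected ring can hold were compared too. All 4 tested neutrophil markers of 5 were highest in pool 1 (21.1% of all genes were). Of these, 3 were at least 2-fold above every other pool (0.852%), among them Retnlg at only 1.42 CPM in pool 1. The summed level of the neutrophil markers was 234 CPM in pool 1, 33.6 and 37.8 in its DBA/2J counterparts, with 103 and 19.1 in the Gpnmb+ pools. S100a9 stood at 126 CPM against 8.99, 12.4, 45.3 and 4.15, S100a8 at 56.1 against 5.64, 7.13, 17.3 and 3.56, and Csf3r at 50.4 against 18.6, 17.6, 40.3 and 11.4, while Ly6g, the defining marker, was near 0 with 0.157 CPM in pool 1 and 0 in 3 other pools. Their part in the members' level was not tested. Corneal epithelial markers summed to 6644 CPM in pool 1, 6400 and 3854 in its DBA/2J counterparts, with 8387 and 6459 in the Gpnmb+ pools. The sum of pool 1 thus lay within the range, but Krt5 was its largest part in every pool and single markers differed. Krt12 stood at 254, 116, 9.44, 1702 and 554 CPM in the order of the pools. Krt14 was the only 1 of the 5 markers highest in pool 1, at 1364 CPM against 702, 459, 901 and 454, and 0 were lowest there. The other 10 marker lists had median log2 ratios of pool 1 to the other DBA/2J pools from -1.09 (skeletal muscle) to 0.52 (erythrocyte). Trabecular meshwork markers, those of the drainage tissue itself, were present in every pool, with sums from 2476 to 4963 CPM and Chi3l1, Mgp and Myoc highest. Chi3l1 made up most of the sum in pool 1, at 4088 CPM, and was the only 1 of the 5 markers highest there. Myoc at 160 CPM and Tnmd at 79.4 CPM were lowest in pool 1.

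**Figure D4:**
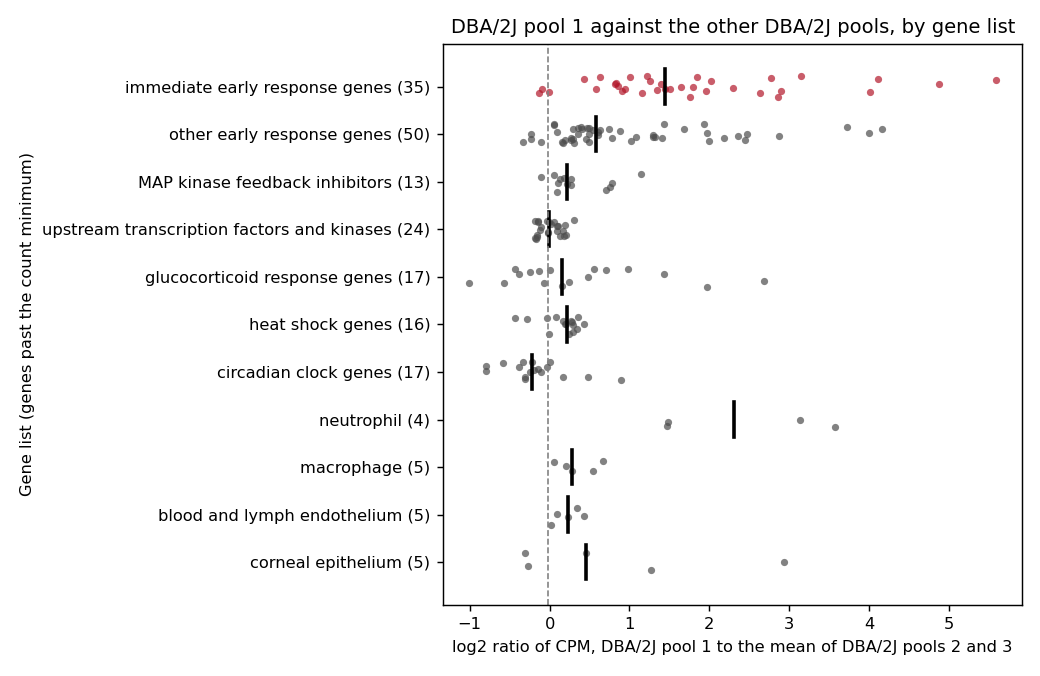
log2 ratio of CPM in DBA/2J pool 1 to the mean of DBA/2J pools 2 and 3 for each gene of 11 lists, with 1 point per gene, black bars for list medians and a dashed line for the median of all tested genes. The members (red, median 1.44) extend to 5.59, the other early response genes (median 0.57) to 4.16 and the 4 neutrophil markers (median 2.31) to 3.57, while the upstream factors have a median of -0.010 and the circadian clock genes of -0.22.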

How the data were processed

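RNA of 5 iridocorneal pools was sequenced as paired reads from poly(A)-selected libraries. Per the labels and the study's methods, the authors used fastp for trimming and STAR for alignment to GRCm39 (Ensembl 110), summed the unique alignments on each gene, and deposited these counts without normalization. The strand used in counting and the date on which each pool was collected are not given in the sources used here. All columns were used, and no pair of libraries held identical values.

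Symbols and positions came from GENCODE M39, which held 56323 of the 56941 identifiers, and promoter windows from RefSeq (GRCm38.p6). Genes that reached 10 counts in any pool were scaled by TMM and tested with the quasi-likelihood test of edgeR 4.0.16 in R 4.3.3, with genotype as the only term and Benjamini-Hochberg adjustment over all tested genes. Calls needed an adjusted p of at most 0.05 and a fold of at least 1.5. A prior count of 2 was added for log2 CPM, and ratios on that scale understate low genes. SE is the log2 fold change divided by the square root of the F statistic. DESeq2 1.42.0, limma-voom (limma 3.58.1), other scalings and count filters, unadjusted p-values, the pool number as a block and each pool left out in turn were alternatives. The scripts were tested on simulated data. Figures were drawn in Python 3.11.15 with matplotlib 3.10.9.

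The members and lists were chosen with earlier results of these data known. All 36 members are described, and outside them the 3 genes of a list with the highest mean CPM, genes of the early response, clock and glucocorticoid lists called without DBA/2J pool 1 (none were), and the 10 protein-coding genes with the largest ratio of DBA/2J pool 1 to the next pool and at least 1 CPM there. Tsc22d3, Errfi1, Per3, Ly6g, Retnlg and the sex-linked genes were named after their values were seen. Replicates are pools of mice, so p-values measure the spread between pools. The values of 1 gene that the rule names are not reported here.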

Additional observations from a re-analysis of the deposited data

How the results depend on the processing

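With all 5 pools, 0 members were called under edgeR, DESeq2's size factors in edgeR, limma-voom, no count filter, filterByExpr, no fold change minimum and every omitted pool, while DESeq2 called 1 and an unadjusted p with the same fold 2. Without DBA/2J pool 1, DESeq2 called 2 members and an unadjusted p with the fold 4, and with a further pool left out the count ran from 0 to 1. That member was Egr1, called without Gpnmb+ pool 1 and without Gpnmb+ pool 2, where the lone pool left is assumed to vary like the others. DESeq2 gave no p for Nr4a1 with all 5 pools. Over all genes, the count of calls went from 157 to 927 with DESeq2, 360 with no count filter and 1 to 217 with a pool left out, and without DBA/2J pool 1 from 6 to 697 with DESeq2, 1 with limma-voom and 0 to 362 with a further pool left out. The median log2 ratio of DBA/2J pool 1 ran from 1.45 to 1.60 with either of the other DBA/2J pools left out, against 1.44, and 32 members were highest in pool 1 under every scaling tried. The pool numbers are shared by 2 pairs of pools only, and no source says that a number marks a batch. Deviations of same-numbered pools from their group means correlated at 0.279 and 0.254. With the number as a replicate block, 0 members and 220 genes were called, and the log2 fold change changed sign for Klf2 (-0.065), Gadd45g (-0.015), Maff (-0.0054) and Per1 (0.14). Limma-voom turned Klf2 to -0.043. Without a count filter and without pool 1, Gadd45b moved to 0.00028, Sgk1 to 0.0015 and Zfp36 to 0.0036. Of 385 alternative log2 fold changes with all pools, 27 had the other sign, in 15 members, and of 315 without pool 1, 27 in 21 members. With all pools and each left out in turn, log2 fold changes of the members that changed sign ran as follows: Nr4a2 -0.20 to 1.00, Dusp1 -0.21 to 1.61, Dusp5 -0.23 to 0.41, Klf2 -0.29 to 0.27, Klf6 -0.13 to 0.21, Zfp36 -0.017 to 0.91, Nfkbiz -0.86 to 0.056, Csrnp1 -0.025 to 1.83, Maff -0.26 to 0.42, Gadd45g -0.015 to 0.17, Ppp1r15a -0.25 to 0.48, Sgk1 -0.018 to 0.24, Per1 -0.60 to 0.22, Hbegf -0.27 to 0.84 and Myc -0.10 to 0.49. Without pool 1 and with each further pool left out, they ran as follows: Fosb -0.094 to 0.86, Egr3 -0.11 to 0.74, Nr4a2 -0.58 to 0.11, Nr4a3 -0.057 to 1.35, Atf3 -0.10 to 0.55, Ier2 -0.068 to 0.33, Ier3 -0.22 to 0.37, Dusp1 -0.73 to 0.65, Dusp2 -0.065 to 0.57, Dusp5 -0.46 to 0.071, Klf2 -0.65 to 0.013, Zfp36 -0.18 to 0.15, Arc -0.19 to 0.50, Csrnp1 -0.0696 to 0.036, Maff -0.75 to 0.11, Gadd45b -0.044 to 0.018, Gadd45g -0.037 to 0.32, Sgk1 -0.081 to 0.054, Hbegf -0.67 to 0.32, Cebpb -0.015 to 0.23 and Myc -0.38 to 0.14. None of these members was called by edgeR with a pool left out, and the cause of the sign changes was not tested. At this depth Npas4, with at most 7 counts in a pool, could not be tested.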

Other observations

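Outside the listed genes, the 10 protein-coding genes with the largest ratio of DBA/2J pool 1 to the next highest pool (at least 1 CPM in pool 1) included cytokines and chemokines, further early response genes, and epithelial barrier genes. Il24, an IL-10 family cytokine, had 111 counts in pool 1 and 0 in each of the 4 other pools, at least 35.7-fold higher against a floor of 3 counts per library, which covers counting error only. Cxcl3, a neutrophil chemokine, had 179 counts in pool 1 and 2, 7, 1 and 0 in the others, and Il6 stood at 10.3 CPM against 0.349, 0.807, 0.217 and 0.164. Ptgs2, the inducible prostaglandin synthase, stood at 110 CPM in pool 1 against 7.36, 9.24, 13.6 and 11.1, and Fosl1, a FOS family protein, at 6.66 CPM against 0.396, 0.359, 0.591 and 0.368. Il6, Fosl1 and Ptgs2 were also in the list of other early response genes.

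Muc5ac, a gel-forming mucin of the conjunctiva, stood at 184 CPM in pool 1, 20.8 and 19.3 in its DBA/2J counterparts, with 2.90 and 7.75 in the Gpnmb+ pools. Reg3g, an antibacterial lectin, stood at 16.7 CPM against 1.40, 1.50, 0.512 and 1.45. Sprr1b and Sprr2h, proteins of the cornified envelope, had 115 and 68 counts in pool 1 and at most 13 and 5 in any other pool, and Ankrd2, a stretch-responsive muscle ankyrin protein, had 96 counts and at most 7. These are values of 1 library against 4 and carry no test.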
